A study of Mus musculus with 2 samples.

Results

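The transcript models described here are those that the deposited tables class as NIC and assign to an annotated gene: multi-exon models whose splice sites are meant to be known ones, joined in an order that no annotated transcript has. They were taken by class and by gene status, without the spike-in RNAs, and a model of 1 library was paired with a model of the other where chromosome, strand and intron chain (the ordered list of introns) were equal. There were 7929 such models among 56790 models of every class in replicate 1 and 9535 among 69026 in replicate 2, which made 14477 distinct intron chains. The samples were hearts of male B6CASTF1/J mice, first-generation hybrids of C57BL/6J and CAST/EiJ, aged 2 months, from The Jackson Laboratory, and 2 µg of nucleic acid went into each long-read library. All samples formed 1 group of 2 libraries with no treatment, so the data describe these hearts and compare the libraries with each other. The sample characteristics give the libraries different animal numbers, whereas a free-text field gives both the same one. Differences between the libraries may therefore be technical. The p-values compare 1 library with the other, cover counting error only and do not measure the spread between libraries or animals.

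A gene's exons can be joined in more than 1 way. The spliceosome cuts each intron at a donor site at its 5′ end and an acceptor site at its 3′ end, and the choice of sites decides which exons, and how much of each, enter the mature RNA. Heart muscle is known for extensive regulated splicing, with RNA-binding proteins such as the Mbnl, Rbfox and Rbm families favouring muscle forms of contractile, calcium-handling and adhesion proteins. A read that covers a whole RNA shows which distant choices occur in the same molecule, and a NIC model is such a combination that the annotation lacks.

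The junctions below show where the most-read members depart from the annotation, as exonic bases on either side of each join in the sense direction, from GENCODE M21 transcripts (mm10). The first 3 pairs are tandem acceptors. Capitals mark the 3 bases that the NIC model keeps and the nearest annotated transcript lacks, for Myh6 (chr14:54941990-54942367, minus strand), Srl (chr16:4493866-4523007, minus strand) and Ctbp1 (chr5:33248672-33249121, minus strand).
Myh6 NIC: gacattggtgccaagCAGaagatgcacgac
Myh6 annotated: gacattggtgccaagaagatgcacgacgag
Srl NIC: tttcaggacaagcagAAGaggtggaggatg
Srl annotated: tttcaggacaagcagaggtggaggatgcga
Ctbp1 NIC: tggggctgcctacagCAGgtaccctccagg
Ctbp1 annotated: tggggctgcctacaggtaccctccaggcgt

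The next 2 stretches lie inside exons of the NIC models of Oaz1 (chr10:80828279-80828308, plus strand) and Oaz2 (chr9:65686256-65686285, plus strand). Capitals mark the 4 bases that the nearest annotated transcript of each gene removes as an intron.
Oaz1 NIC: gcctcggtggtgcTCCTgatgtccctcacc
Oaz2 NIC: gcctctgtggtgcTCCTgatgcccctcacc

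Whole exons set the following models apart. Phb2 (chr6:124716019-124716617, plus strand) and Sept7 (chr9:25252688-25265405, plus strand) are shown in the annotated form, with the very short exon that the NIC model leaves out in capitals. Itgb1 (chr8:128726983-128727063, plus strand) and Dctn1 (chr6:83183322-83189088, plus strand) are shown in the NIC form, with the exon that the nearest annotated transcript lacks in capitals. The Mbnl2 exon (chr14:120404638-120404732, plus strand) is the 1 that its leading NIC model leaves out.
Phb2 annotated: aagttttactcgGGGAAGtgacagcctcat
Sept7 annotated: gcggcaccatggTTTGTcaaccgaagaac
Dctn1 NIC: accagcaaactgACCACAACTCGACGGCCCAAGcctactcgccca
Itgb1 NIC: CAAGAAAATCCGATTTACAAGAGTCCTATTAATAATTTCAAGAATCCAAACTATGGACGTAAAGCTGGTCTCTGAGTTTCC
Mbnl2 annotated: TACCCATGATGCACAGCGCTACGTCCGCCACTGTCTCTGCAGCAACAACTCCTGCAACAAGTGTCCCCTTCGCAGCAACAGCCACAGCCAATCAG

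The last 2 are joins across introns that no annotated transcript has, with the 3 bases on each side of the join in capitals, for Idh3b (chr2:130279423-130280277, minus strand) and Mpc1 (chr17:8283947-8296549, plus strand).
Idh3b NIC: atcaaagctggcAAGGTTcgaacctcagat
Mpc1 NIC: ggactatctcatGAGCACttctggggccca

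The class label was checked against the annotation before any value was used. None of the 14477 chains equalled an annotated chain. Every splice site was annotated on the same strand in 11570 chains, while 2907 chains (20.1%) held at least 1 site that GENCODE M21 lacks. These chains took 13.8% of NIC reads in replicate 1 and 15.2% in replicate 2. They rested on 2202 distinct unannotated sites, 1.72% of the 128375 distinct sites of NIC models, and 34.2% of those sites lay within 10 bases of an annotated one. The name of the class thus held for the first set, and the 2907 chains were NIC by the deposited class alone. Markers of the tissue were as labelled: all 8 heart muscle markers were read in each library, with 24184 and 30620 reads, and the 10 markers of skeletal muscle, liver, brain, thymus and lung had 2 reads in replicate 1 and 1 in replicate 2.

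The class of 1 and the same chain could also differ between the libraries. Beside 2987 chains that were NIC in both, 632 chains were read in both libraries but NIC in only 1 of them, with the class NNC (models with an unannotated splice site) in the other library for 525 chains and ISM (an incomplete match to a known transcript) for 105. All 525 chains that changed between NIC and NNC held an unannotated site. Among chains with at least 10 NIC reads in 1 library, 46 had 0 NIC reads in the other, and 45 of these were read there under another class, 34 as NNC and 11 as ISM. Mknk2, which encodes a kinase of the translation factor eIF4E, had 128 reads as NNC in replicate 1 and 138 as NIC in replicate 2. A chain of Tnni3, cardiac troponin I, had 81 reads as NNC and 130 as NIC, and a chain of Pdlim5, a Z-disc protein, had 56 as NNC and 111 as NIC. The opposite order held for Sbk1, with 89 reads as NIC in replicate 1 and 83 as NNC in replicate 2, and for Mfn2, the mitochondrial fusion protein, with 56 and 83. Both libraries read these chains while the label moved, so reads are compared below by intron chain whatever the class, and any value that counts NIC labels only is named as such. These 5 genes were picked from the 45 chains after their values were seen.

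NIC models took 5.42% of the reads of annotated nuclear genes in replicate 1 (23328 of 430251 reads; 95% Clopper-Pearson interval 5.35 to 5.49) and 4.96% in replicate 2 (31270 of 629896; 4.91 to 5.02), a mean of 5.19% ± 0.324 (SD, n = 2). The intervals did not overlap and cover counting error only. Known transcripts took 75.6% ± 0.0813 and NNC models 3.62% ± 0.129. A NIC model had 3.11 ± 0.239 reads on average, against 26.8 ± 5.39 for a known transcript and 1.71 ± 0.0751 for an NNC model. Median exon number was 12 and 11 for NIC models in replicates 1 and 2, and 7 in both for known transcripts, and the median NIC model was 2898 and 2727 bases long. Most models were rare: 73.1% had a single read in replicate 1 and 70.5% in replicate 2. The 262 and 371 models with at least 10 reads held 49.1% and 53.3% of NIC reads, and the 15 most-read models of each library held 25.7% and 24.4%.

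At least 1 NIC model was found for 3802 genes in replicate 1 and 4295 in replicate 2, of 12682 and 13310 genes read. The proportion grew with the number of reads on a gene. Among genes with 20 to 99 reads 47.0% and 49.6% had a NIC model, and among genes with at least 500 reads 73.5% and 78.0%. The share of reads that were NIC did not follow that order: it was 6.52% and 6.39% over genes with 20 to 99 reads and 4.08% and 3.23% over genes with at least 500. Protein-coding genes held 7813 of the models in replicate 1 and 9379 in replicate 2.

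The models named next were picked among those NIC in both libraries, so chains that changed class, such as that of Mknk2, are not ranked with them. The member with the most reads belonged to Myh6, which encodes alpha myosin heavy chain, the main motor of the adult mouse ventricle (ENSMUSG00000040752.16; model at chr14:54941921-54966574, minus strand, 39 exons). It had 2314 reads in replicate 1 and 2370 in replicate 2, and its single difference from the transcript Myh6-201 was the upstream acceptor of intron 38 shown above, which adds 3 bases to the coding sequence of the last exon. Myh6-201 itself had 6111 and 6298 reads. The NIC model was 14.7% of Myh6 reads in replicate 1 (95% interval 14.2 to 15.3) and 13.6% in replicate 2 (13.1 to 14.1). A further NIC model had the same acceptor on the intron chain of Myh6-205, with 688 and 816 reads against 1856 and 2043 for Myh6-205. Over Myh6 reads of every class spliced from the donor of intron 38 to either acceptor, 27.3% used the upstream one in replicate 1 (4267 reads, against 11338 for the downstream one) and 27.4% in replicate 2 (4741 against 12565), with intervals of 26.6 to 28.1 and 26.7 to 28.1. Myh6 had 464 distinct NIC chains, more than any other gene, of which 81 were NIC in both libraries. Together its NIC models were 24.0% and 23.9% of its reads.

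Srl and Ctbp1 shared the tandem acceptor pattern. Srl encodes sarcalumenin, which binds calcium in the sarcoplasmic reticulum (chr16:4476979-4523063, minus strand, 6 exons). Its NIC model had 706 and 823 reads, 70.5% and 66.9% of the gene's reads, whereas the nearest annotated transcript, Srl-202, had 63 and 84. The longer annotated form Srl-201 had 108 and 150 reads and holds 1 more exon, of 1311 bases, that the NIC model skips. Of reads spliced from the donor of intron 1 to either acceptor, 91.8% and 90.7% used the upstream one. Ctbp1, a transcriptional corepressor (chr5:33247723-33274981, minus strand), had 123 and 130 reads of its NIC model, 51.9% and 46.1% of the gene's reads. Its upstream acceptor was used by 83.7% and 81.0% of the reads spliced from the same donor to either one.

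In several genes the NIC form held nearly all of the gene's reads. The antizymes Oaz1 and Oaz2 hold back polyamine synthesis by binding ornithine decarboxylase, and their full protein is known to be made by a programmed frameshift of the ribosome. Oaz1 (chr10:80826682-80829285, plus strand, 5 exons) had 712 and 1121 reads of the NIC model, 95.1% and 95.7% of its reads. Oaz2 (chr9:65676548-65690300, plus strand) had 144 and 285 reads, 90.0% and 92.5%. Over every class, 744 and 1161 reads of Oaz1 and 156 and 301 of Oaz2 belonged to models with an exon across the 4 bases. In each library 0 reads belonged to models with the 4-base intron, and each count of 0 allows up to 3 reads. These counts go by the introns of the deposited models. A read that lacked the 4 bases without an intron called there would count as keeping them. The 0 therefore cannot show that every molecule kept them.

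Very short annotated exons gave the same picture in Phb2 and Sept7. Phb2, prohibitin 2 of the inner mitochondrial membrane (chr6:124712336-124716950, plus strand), had 89 and 155 reads without the annotated 6-base exon, 93.7% and 93.9% of the gene's reads, and 0 reads with it in either library. Sept7, a septin GTPase of the cytoskeleton (chr9:25252451-25308564, plus strand), had 49 and 123 reads without an annotated 5-base exon, 90.7% and 96.1%, and again 0 reads with it. These counts too go by the introns of the deposited models. A molecule whose short exon was not placed as an exon would count as lacking it, and this was not tested. The model of Gbe1, the glycogen branching enzyme (chr16:70314064-70569714, plus strand), had 34 and 52 reads. Its spliced sequence across all junctions was found whole in an annotated transcript, so the bases joined were the same and only the intron coordinates differed. Of 11456 NIC chains whose exonic bases all lie in annotated exons, 17 were of this kind, with 57 reads in replicate 1 and 80 in replicate 2.

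Of the mitochondrial proteins of fuel use, Mpc1 and Idh3b were led by a NIC form and Ndufs1 was not. Mpc1, a subunit of the carrier that brings pyruvate into mitochondria (chr17:8283762-8297661, plus strand, 4 exons), had 195 and 320 reads of the NIC model, 96.1% and 95.8% of its reads. The known transcript of Mpc1 with the most reads had 1 and 3 and holds an 81-base exon within the intron that the NIC model removes whole. Idh3b, the beta subunit of the NAD-dependent isocitrate dehydrogenase of the TCA cycle (chr2:130279307-130284434, minus strand, 12 exons), had 288 and 478 reads, 80.7% and 83.3%. Its last intron ran 289 bases further than that of Idh3b-201, which had 7 and 13 reads, and 97.8% and 97.2% of the reads spliced from the same donor to either acceptor used the distant one. Ndufs1, a core subunit of respiratory complex I (chr1:63143596-63176793, minus strand), had 96 and 131 reads of a model with an extra 104-base exon in the 5′ UTR, 13.7% and 12.7% of its reads. Ndufs1-201, the known form, had 383 and 566.

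Other members differed by the presence of 1 exon. Itgb1 encodes integrin beta 1, which anchors cells to the matrix and has a muscle form with a different cytoplasmic tail (chr8:128685654-128733200, plus strand). Its NIC model with the 81-base exon shown above had 101 and 121 reads, 49.5% and 48.4% of the gene's reads, and Itgb1-201 without the exon had 76 and 93. Over reads of every class, 59.6% and 55.3% of those that chose included the exon. Mbnl2, a muscleblind splicing factor (chr14:120275669-120429626, plus strand), had 112 and 129 reads of a model without the 95-base exon, 84.2% and 79.6%, and 5 and 11 reads of the known transcript with it. Dctn1, the largest subunit of dynactin, had 87 and 101 reads of a model with a 21-base exon, and 68.4% and 79.6% of choosing reads included it. Tmed2, a cargo protein of the early secretory pathway (chr5:124540695-124550496, plus strand), had 178 and 371 reads of a model that differs from Tmed2-201 by 21 added bases, while Tmed2-201 had 31 and 41. Rilpl1 had 110 and 156 reads of a model with an extra 88-base exon, 63.6% and 63.9% of its reads, against 26 and 34 for Rilpl1-201.

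In Ndrg2 and Hspd1 the difference lay in the 5′ UTR. The Ndrg2 model used a donor 601 bases upstream and had 131 and 211 reads, 14.1% and 14.3% of the gene's reads. In Hspd1, the mitochondrial chaperone HSP60, a donor 210 bases upstream gave 79 and 119 reads, 27.2% and 25.2%. Uchl3, a deubiquitinating enzyme whose model differs in the coding sequence, had 27 and 33 reads, 87.1% and 91.7% of its total.

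**Figure D1:**
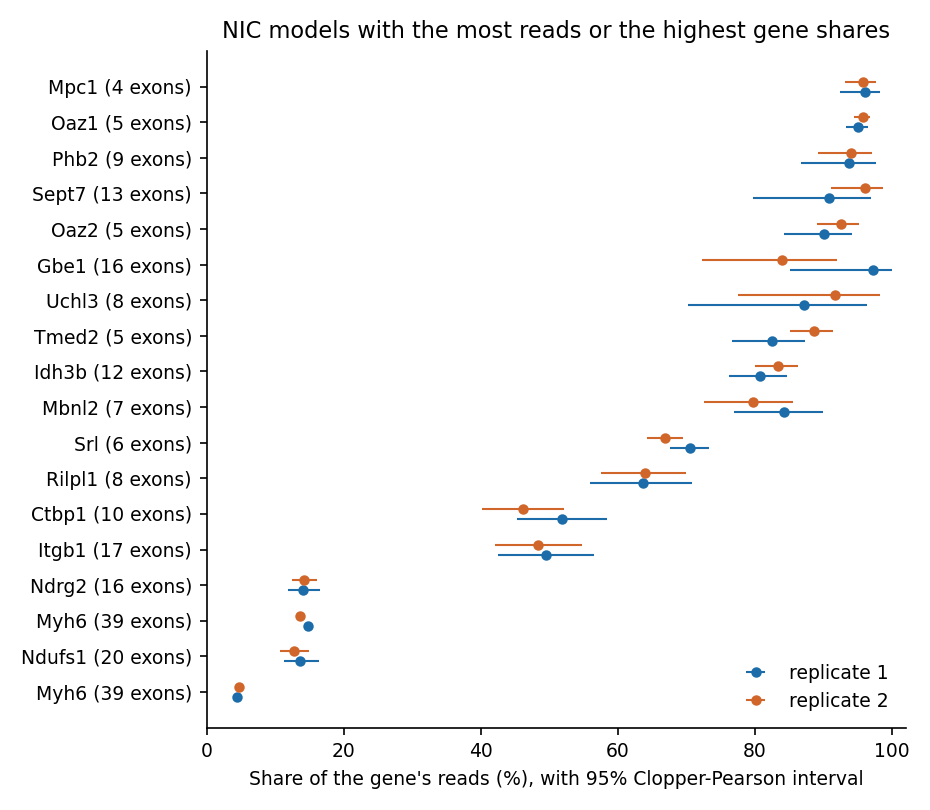
Share of each gene's reads held by the 15 models with the most reads and the 10 with the highest mean share among those NIC in both libraries (18 models in all), in replicate 1 (blue) and replicate 2 (orange), with 95% Clopper-Pearson intervals for counting error. Mpc1, Oaz1 and Phb2 stand above 93% in both libraries, and the 2 Myh6 models, Ndrg2 and Ndufs1 below 15%.

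A NIC chain led its gene more widely than in these named cases. Of 3318 genes that had 20 or more reads in both libraries, 90 (2.71%) had the same NIC chain as their most-read form in both libraries, and 85 of those chains had only annotated sites. The number was 104 when the chain had to be NIC in only 1 of the libraries. Known transcripts led 2867 genes in both libraries. Against the nearest annotated transcript, the 90 leading chains had another first intron in 21 genes, a shifted donor in 11, a skipped exon in 9, a shifted acceptor in 8, an added exon in 8, another last intron in 8 and a difference outside these kinds, single or combined, in 23. The remaining 2 were Oaz1 and Oaz2. An annotated exon under 10 bases or an annotated intron under 30 bases occurred in 7 of the 90 genes (7.78%, interval 3.18 to 15.4) and in 43 of all 3318 (1.30%, interval 0.939 to 1.74). This count was added after the data were seen, and Oaz1, Oaz2, Phb2 and Sept7, described above, are among the 7. The contrast is therefore a description only.

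Set against the annotated transcript of the gene with the most introns in common, the chains fell into a few kinds of change. A single skipped exon was the most frequent of the simple ones, with 2574 chains (17.8%) and 12.1% ± 0.490 of NIC reads. A shifted acceptor was seen in 1483 chains (10.2%) but took 26.1% and 23.9% of the reads of replicates 1 and 2, and a shifted donor in 1478 chains (10.2%) with 10.8% ± 0.141. Another first intron accounted for 1373 chains and 13.5% ± 0.483 of the reads, another last intron for 671 chains and 4.61% ± 0.0884, and an added exon for 645 chains and 5.86% ± 0.223. A single retained intron of at least 30 bases was the sole change in 1047 chains, which took 2.69% ± 0.507 of the reads. Annotated introns under 30 bases were read through as the sole change in 8 chains, and the reads of Oaz1 and Oaz2 made them 4.26% ± 0.572 of the total. The most numerous were the 5194 chains (35.9%) that fell outside these kinds, with a combination of changes or a single one of another form, and they held 21.2% ± 0.628 of the reads.

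**Figure D2:**
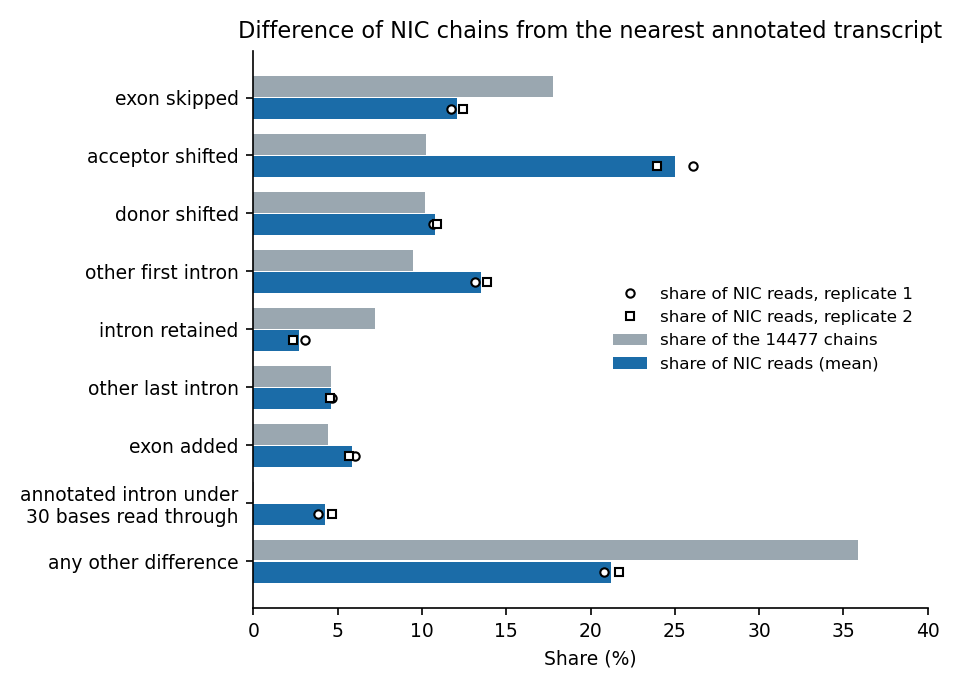
Share of the 14477 NIC chains (grey bars) and of NIC reads (blue bars, mean of 2 libraries; circles and squares, replicates 1 and 2) by the difference from the nearest annotated transcript. Shifted acceptors hold 10.2% of the chains and 26.1% and 23.9% of the reads. Chains with a single retained intron as the sole change are 7.23% of the chains and hold 2.69% of the reads.

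The same chains were also classed by the introns they hold, with more than 1 class possible. Only annotated introns, in a combination that no transcript has, made up 54.5% of the models in replicate 1 and 50.7% in replicate 2, and 69.1% and 66.6% of NIC reads. Exon skipping by an intron new to the annotation was found in 26.3% and 28.6% of the models, and a retained annotated intron in 19.8% and 18.2%. Models with a retained intron of any length, alone or with other changes, held 15.1% and 15.2% of NIC reads. New pairs of a known donor and a known acceptor that skip no whole exon were 3.05% and 2.96%. Read-through models, which join sites of 2 genes that share none, were 77 of the models in replicate 1 and 102 in replicate 2. They were 0.971% and 1.07% of the models and 0.424% and 0.467% of the reads. The read-through model with the most reads, assigned to Fam160a1, had 7 and 11. The retained-intron chain of Map7d1 had 23 and 29 reads, that of Cfl2, cofilin 2, had 4 and 10, and a Myh6 chain had 20 and 7.

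Shifted acceptors were dominated by a distance of 3 bases. Among chains with a shifted acceptor of up to 30 bases and only annotated sites, 280 of 582 (48.1%, interval 44.0 to 52.3) differed by exactly 3 bases, and 72.3% (68.5 to 75.9) by a multiple of 3. The model had 3 bases fewer more often than 3 bases more, in 183 against 97 of these 280 chains. With chains that hold unannotated sites included, the counts were 291 against 119. Between 2 annotated acceptors the 3 bases are the end of the longer intron, which by the acceptor rule is AG, and they were CAG in 211 of the 280 chains, TAG in 37, AAG in 28 and GAG in 4. Over all 410 chains with a 3-base acceptor shift, those with unannotated sites included, Myh6 supplied 3032 of 4560 reads in replicate 1 and 3238 of 5153 in replicate 2. These 410 chains came from 301 genes.

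Donors showed another distance. Of 257 chains with a shifted donor of up to 30 bases and only annotated sites, 37 (14.4%, interval 10.3 to 19.3) differed by 4 bases and 10 (3.89%, interval 1.88 to 7.04) by 3. A multiple of 3 was found for 46.7% of the donor shifts (40.5 to 53.0), below the interval of the acceptor shifts.

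**Figure D3:**
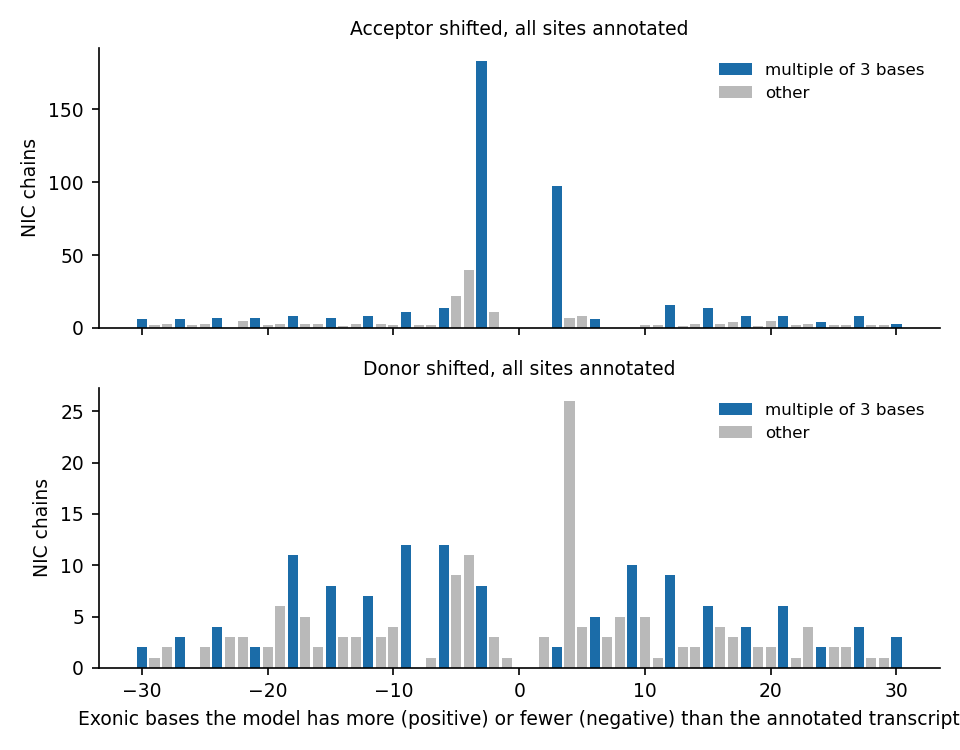
NIC chains by the number of exonic bases gained (positive) or lost (negative) at a shifted acceptor (top) or donor (bottom), for shifts of up to 30 bases between annotated sites; blue bars are multiples of 3. The acceptor panel peaks at 3 bases on both sides of 0 (280 of 582 chains) and the donor panel at 4 bases more (37 of 257 chains in both directions).

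The exons that NIC models skip were more often a multiple of 3 bases long than exons at large in the same genes. Of 1811 exons skipped singly by an intron that the annotation lacks, 918 (50.7%, interval 48.4 to 53.0) had such a length, against 39.7% (39.1 to 40.4) of all 20321 internal exons of these genes. Within coding sequence the values were 53.1% (50.6 to 55.6) of 1602 skipped exons and 40.9% (40.2 to 41.7) of 17728. Coding exons skipped in chains that were NIC in both libraries reached 57.5% (51.7 to 63.2) of 299. The skipped exons had a median of 114 bases and the internal exons of the same genes a median of 118. Exons of 1 gene share their source, so these intervals cover counting error only.

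The ends of the models mostly followed the annotation. The 5′ end lay within 50 bases of an annotated start of the same gene in 91.5% ± 0.357 of NIC models and the 3′ end within 50 bases of an annotated end in 89.0% ± 0.322. Both ends did so in 81.7% ± 0.617. In NNC models the same values were 82.2% ± 0.0775, 82.4% ± 0.672 and 67.9% ± 0.606, lower by more than the spread between the libraries.

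Whether a NIC model was found again in the other library rose with its read number. Of models with 1 read, 24.3% (interval 23.2 to 25.4) of those in replicate 1 were also NIC in replicate 2, and 16.8% (15.9 to 17.7) of those in replicate 2 were NIC in replicate 1, the library with fewer reads. With 3 to 4 reads the shares were 79.7% and 68.5%, and with at least 10 reads 92.7% in each direction. NNC models had lower shares in every read class, with 13.9% and 9.04% at 1 read and 81.0% and 82.5% at 10 or more, and known transcripts higher ones, with 54.8% and 38.7% at 1 read and 100% and 99.9% at 10 or more. These shares count the same class only. Under any class, NNC models with at least 10 reads were read again in 100% of cases in each direction, and with 5 to 9 reads in 98.4% and 90.8%, against 98.0% and 94.5% of NIC models. Counting a chain as found under any class, all 262 NIC models with at least 10 reads in replicate 1 and 370 of 371 in replicate 2 were read in the other library. The exception was a chain of Sirt5, a mitochondrial deacylase, with 13 reads in replicate 2 and 0 in replicate 1, which allows up to 3 reads. Among models with at least 10 reads, those with only annotated sites were NIC in the other library in 97.7% and 98.4% of cases, and those with an unannotated site in 68.2% and 65.1%. By class label, 2987 chains were NIC in both libraries, 37.7% of the models of replicate 1 and 31.3% of those of replicate 2, and they held 72.0% ± 1.47 of NIC reads.

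**Figure D4:**
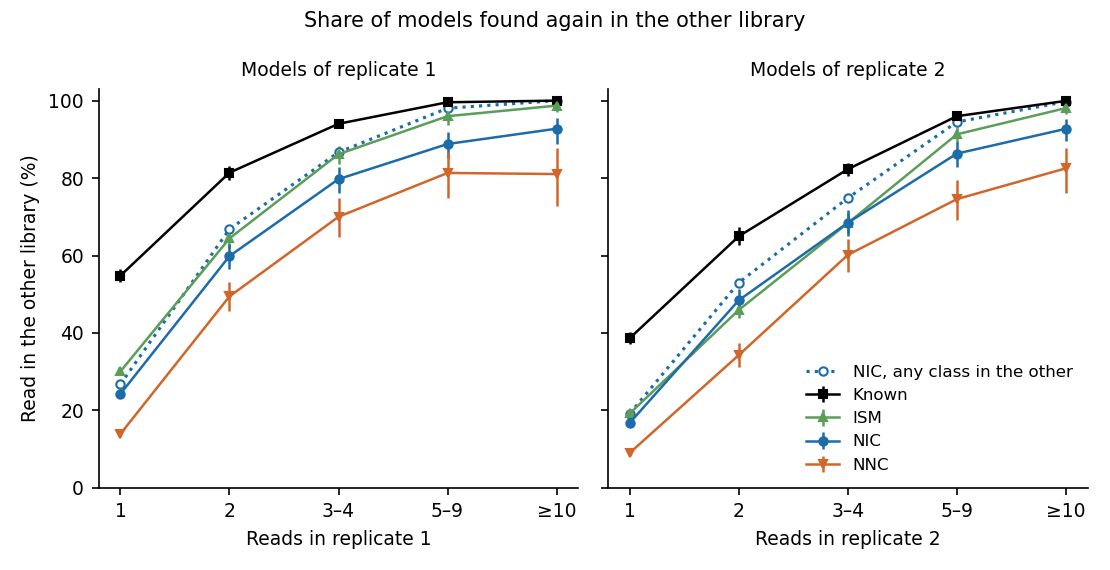
Share of models found again in the other library (same class) by their reads in replicate 1 (left) or replicate 2 (right), with 95% Clopper-Pearson intervals; the dotted line counts NIC chains found under any class. NIC models with at least 10 reads recur as NIC in 92.7% of cases in both panels, and nearly all are read under some class.

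Differences in the level of a chain between the libraries were seldom called. Across the 2987 chains that were NIC in both, Pearson's r of log2(CPM + 1) was 0.838 and Spearman's rho 0.656, as a description across chains that share genes and reads per library. CPM are counts scaled to the reads of annotated nuclear genes of each library. Of the 36 chains with at least 100 summed reads, 33 lay within 1.5-fold of each other. A two-sided exact binomial test of each chain, whatever its class, covered 8523 chains of all classes with at least 10 summed reads and called 10 of them at an adjusted p under 0.05 and at least 2-fold (0.117%). Of 696 tested NIC chains 0 were called by this test, and 49 had an unadjusted p under 0.05. The median absolute log2 ratio was 0.451 for the NIC chains and 0.355 for chains of every class. The Sirt5 chain, with 0 reads in replicate 1 and 13 in replicate 2, had an adjusted p of 0.16 by this exact binomial test. For chains with few reads, the lack of a call therefore does not show equal levels. Adjusted p-values were under 0.05 for 4 NIC chains with smaller differences, and for 41 of the 8523 chains of every class. The leading Myh6 chain was higher in replicate 1 by 0.52 on the log2 scale (exact binomial test, adjusted p = 7.39e-31), at 5378 and 3763 CPM, and the other Myh6 chain by 0.30 (adjusted p = 0.0143). By the same exact test Srl was higher in replicate 1 by 0.33 (adjusted p = 0.00474), and Tmed2 was lower there, with a log2 ratio of -0.51 (adjusted p = 0.023). On the scale of the ERCC spike-ins the log2 ratios became 0.25 and 0.04 for the Myh6 chains, 0.06 for Srl and -0.77 for Tmed2. By the exact binomial test the adjusted p was then 0.858 for Srl and 0.964 for the other Myh6 chain. On that scale 4 of the 696 NIC chains were called, of Sept7, Sirt5, Eno1 and Art3, each lower in replicate 1. Of the 8523 chains of every class 52 were called on it, a similar proportion. The test sets 1 library against the other, and only counting error enters it.

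**Figure D5:**
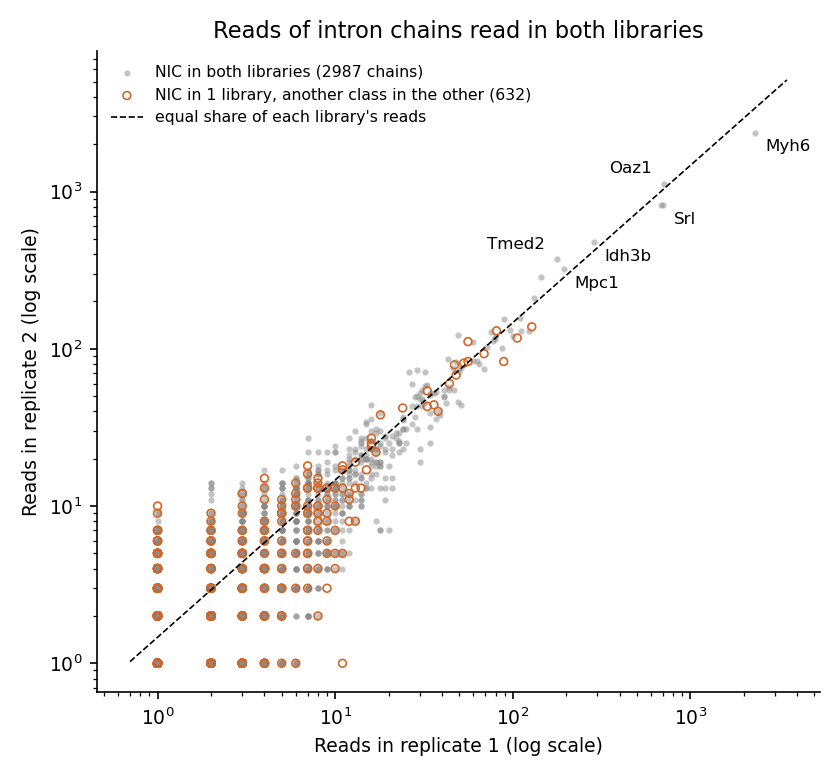
Reads of each intron chain in replicate 1 and replicate 2 on log scales, for the 2987 chains that were NIC in both libraries (grey) and the 632 that were NIC in 1 and of another class in the other (orange rings); the dashed line is an equal share of each library's reads. The orange rings reach above 100 reads in both libraries, and 33 of the 36 grey chains with at least 100 summed reads lie within 1.5-fold.

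By contrast, the share of a gene's reads that carried the NIC label did differ. Fisher's exact test called 22 of 2124 genes (1.04%) at an adjusted p under 0.05 and at least 10 percentage points. Sbk1 had 86.4% NIC reads in replicate 1 and 0% in replicate 2, and Mknk2 had 6.54% and 54.8%. Pdlim5 had 8.91% and 70.3%, Tnni3 5.88% and 37.6%, and Abcd3, a peroxisomal transporter, 4.48% and 75.8%. Smdt1, a regulator of the mitochondrial calcium uniporter, had 47.1% and 3.75%, and Qk, an RNA-binding splicing regulator, 20.7% and 59.8%. Nexn, an actin-binding Z-disc protein, had 49.5% and 29.4%, Mfn2 21.5% and 10.8%, and Sfr1 43.6% and 0%. When all reads of the chains that are NIC in at least 1 library were counted, whatever their class, 0 of the 22 genes stayed called and no other gene was, at 37 genes with an unadjusted p under 0.05 by Fisher's exact test. Mknk2 then stood at 56.2% and 54.8%, Tnni3 at 35.7% and 37.6%, and Sbk1 at 86.4% and 74.1%. All 22 genes were called on the label and none on the chains.

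Over groups of genes, NIC forms were unevenly spread. In the splicing regulator list, which holds the RNA-binding proteins that steer alternative exons, 19.6% of reads in replicate 1 and 23.4% in replicate 2 were NIC. Of its 18 members with 20 or more reads in both libraries 15 (83.3%) had a NIC model, against 2124 of all 3318 such genes (64.0%), and the median share was 7.18%, against 1.02%. Mbnl2 (88.7% and 84.6%) and Hnrnpk (62.4% and 85.3%) were its highest members, and both Hnrnpk and Qk hold a chain that changed class between the libraries. Genes known for alternative exons in heart had 8.54% and 7.70% NIC reads and a median of 6.53% over 28 members. Ktn1, kinectin of the endoplasmic reticulum, had 129 and 141 NIC reads over 90 chains, 81.6% and 76.2% of its reads. The adaptor gene Sorbs2 (54.8% and 53.5%) and the transcription factor Mef2a (44.2% and 43.4%) were also high.

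Contractile and calcium-handling genes rested on few members. The thick and thin filament list had 12.8% ± 1.16 NIC reads, of which Myh6 supplied 3771 of 3854 and 4157 of 4450, and the median of its 14 members was 0.958%. Tnni3, which holds a chain that changed class, had 16 and 151 NIC reads. Mybpc3, cardiac myosin-binding protein C, had 12.6% in each library and Tnnt2, cardiac troponin T, 7.43% and 6.37%. In the titin, Z-disc and M-band list (3.03% and 2.90%) Nexn supplied 146 of 275 NIC reads in replicate 1 and 134 of 399 in replicate 2, and Pdlim5 9 and 128, and both hold chains that changed class. Nebl, nebulette of the Z-disc, had 73.0% and 53.7%, 27 of 37 and 29 of 54 reads. In the calcium handling list (1.65% and 1.41%) Atp2a2, which encodes the SERCA calcium pump, had the most NIC reads, 71 and 96, at 1.28% and 1.42% of its own, with Camk2d, the delta subunit of CaM kinase II, at 37.2% and 45.7%.

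Metabolic lists were low in NIC reads apart from single genes. Oxidative phosphorylation genes had 0.731% and 0.697%, and 30 of 36 (83.3%) had a NIC model, against the 64.0% given above. That 64.0% is not matched for depth: reads of these genes ranged from 77 and 140 (Sdhc) to 4204 and 6930 (Atp5b). Among all genes with at least 500 reads, 73.5% and 78.0% had a NIC model within replicates 1 and 2. Ndufs1 was the highest at 23.0% and 21.3%. Fatty acid genes had 0.862% and 0.830%, led by the fatty acid transporter Cd36 at 25.8% and 23.0%. The TCA cycle, glycolysis and creatine kinase list had 2.53% and 2.69%, with Idh3b and the enolase gene Eno1 (68.3% and 76.3%) highest. Ribosomal and translation genes had 0.419% and 0.524%, with a NIC model in 7 of 19 members (36.8%), and erythroid genes 0.0839% and 0.0855%. Fibroblast and matrix genes had 0.401% and 0.410%, endothelial genes 2.78% and 2.87%, and leukocyte genes 1.26% and 2.47% on 6 and 19 NIC reads. The circadian list had 10 and 4 NIC reads and the long non-coding RNA list 9 and 11, too few to rank.

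Among chains that were NIC in both libraries, the most-read one of several lists held a minority of its gene's reads. A chain of Cd36 with another first intron had 33 and 59 reads, 10.8% and 12.1% of the gene. Cd36-203, its known transcript with the most reads, had 24 and 56. Camk2d had 17 and 23 reads of a chain that skips a 60-base exon, 18.1% and 24.5% of the gene. It was still the most-read form of Camk2d in both libraries. Nexn had 31 and 43 reads of a chain that differs from Nexn-211 in the coding sequence, at introns 4 and 5 of that transcript. This Nexn chain also has a 5′ UTR intron of its own. Those of Eif4a2 (4 and 4 reads), the heart non-coding RNA Mhrt (4 and 3), Eng (4 and 3), Gsn (4 and 2), H2-D1 (1 and 2) and the clock output gene Dbp (2 and 1) are too few to describe further. By kind of intron, the new site pairs with the most reads were in Eno3, muscle enolase (16 and 44 reads), Map7d1 (29 and 31) and Srl (19 and 15). Read-through chains of Yjefn3 (4 and 8) and D2hgdh (3 and 3) followed that of Fam160a1. Among chains with an unannotated site that were NIC in both libraries, Hnrnpk led with 60 and 111 reads, before a pair of Myh6 chains with 69 and 74 and with 44 and 57.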

How the data were processed

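The authors deposited raw counts of reads per transcript model, 1 table and 1 annotation file per library. Build mm10 and annotation GENCODE M21 come from the deposited README, and TALON from the source column of the deposited annotation files. No aligner is given in the sources used here. NIC models were compared here with GENCODE M21 in Python 3.11.15 (pandas 2.3.3, scipy 1.17.1, numpy 2.4.6, matplotlib 3.10.9). Sites, introns and exons were matched exactly on the strand. Levels are CPM of annotated nuclear reads (430251 and 629896). Intervals are Clopper-Pearson at 95% and cover counting error only, since copies of a molecule cannot be told apart; a count of 0 allows 3 reads. Chains were tested with an exact binomial test, gene shares with Fisher's exact test, both Benjamini-Hochberg adjusted over the whole table. Both tests were checked on simulated counts. The calls of skipped and added exons, shifted sites and retained introns were checked on hand-made models of the plus strand. Calls on the minus strand, of other first or last introns and of introns under 30 bases were not checked in that way. Log2 ratios have 0.5 reads added. Named were, among models NIC in both libraries, the 15 with the most reads, the 10 with the highest gene share, 3 per kind and 1 per gene list, and beside these up to 10 called chains and 10 called genes. Up to 3 models per kind of difference, the chains that changed class, reading by chain and not by class, base triplets and short-feature counts were added after the data were seen. Members and the 15 lists were chosen with earlier results of these data known. Strand assignment of reads and reads shared by near-identical genes were used as deposited. Intronic bases, splice dinucleotides included, were not analysed here.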

Additional observations from a re-analysis of the deposited data

Results flagged for a closer look

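NIC models also occurred outside annotated genes, in loci that the deposited tables class as antisense or intergenic, and no comparison above uses them. They had 41 reads over 19 models in replicate 1 and 40 reads over 20 models in replicate 2, above the 3 reads that a count of 0 allows in a library.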

How the results depend on the processing

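Results that moved did so as follows. Of the 2987 chains NIC in both libraries, 1268 had at least 2 reads in each. The NIC share of 5.19% became 6.15% with known, NIC and NNC models as denominator, 3.99% for models with at least 2 reads, 3.74% for chains in both libraries, 4.44% with all sites annotated and 4.57% without Myh6; it was 4.96% without replicate 1 and 5.42% without replicate 2. Differing NIC chains numbered 0 as reported and 4 on the spike-in (ERCC) scale, which moves log2 ratios by -0.27. On that scale 52 chains of every class were called. By reads labelled NIC only, 33 NIC chains differed, of which 32 were read in the other library under another class. Genes with a differing share fell from 22 to 0 when chains were counted under any class. Over only the chains in both libraries, exon skipping was 21.5%, intron retention 12.2%, new site pairs 2.81%, only annotated introns 64.5%, read-through 0.737% and unannotated sites 11.8%. The frame share was 53.2% over those chains, 53.1% for coding exons and 57.5% for both together. The genes led by a NIC chain fell from 90 to 40 with at least 50 reads in each library, where fewer genes were tested. Leaving out a replicate gave 26.3% to 28.6% for exon skipping, 18.2% to 19.8% for intron retention, 2.96% to 3.05% for new pairs, 50.7% to 54.5% for only annotated introns, 0.971% to 1.07% for read-through, 17.8% to 19.4% for unannotated sites, 50.2% to 52.0% for the frame, 91.3% to 91.8% for 5′ ends and 88.7% to 89.2% for 3′ ends. Counts that need both libraries have no such value. All other alternatives kept counts within 1.5 times and values within 1 SD (for the frame, within its interval), with gene shares of named models the exception where only known, NIC and NNC models were the denominator. No paired analysis was possible because there was only 1 group. Most models had 1 read, so whether such a model is absent from the other library could not be told at this depth.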
